A study of Mus musculus with 6 samples.

Results

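The genes described here are 10 oncofetal genes of the Lin28 and let-7 axis, namely Lin28a, Lin28b, Trim71, Hmga1, Hmga2, Igf2bp1, Igf2bp2, Igf2bp3, Arid3b and Plagl2. They were taken by symbol from a table of 31575 named genes, of which 13235 were abundant enough to be tested, all 10 of these genes among them. Lin28a stands in the deposited table under its older symbol Lin28. Each gene's value is the sum of its assembled isoforms of at least 200 nt that match, or share a splice junction with, an annotated transcript. This left 89 of the 92 isoforms listed under these symbols, and the other 3 are antisense models at Arid3b.

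The cells were TT-FHAgo2 mouse embryonic stem cells, a clonal line in which doxycycline controls Argonaute 2 (Ago2), the protein that loads microRNAs and binds their target transcripts. All cultures had been kept in 0.1 µg/mL doxycycline on gelatin with leukemia inhibitory factor. In one condition the drug was withdrawn for 96 h (off doxycycline), and in the other it was raised to 2.5 µg/mL for 48 h (on doxycycline), a dose that the labels equate with wild-type Ago2. Each condition had 2 strand-specific polyA libraries, which the files number 0 and 1. Dose and duration changed together and cannot be told apart, and the labels do not state the genotype at the endogenous Ago2 locus or say whether the libraries came from separate cultures. The p-values therefore measure only the spread between these libraries, which may be technical. The 2 spike-in samples of the series were not analysed here.

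LIN28A and LIN28B are RNA-binding proteins that bind let-7 precursors and block their maturation, and LIN28A recruits terminal uridylyl transferases that mark the precursor for decay. Mature let-7 in turn represses a set of fetal growth genes, among them both Lin28 genes, Trim71, the chromatin proteins Hmga1 and Hmga2, the insulin-like growth factor 2 mRNA-binding proteins and the transcription factors Arid3b and Plagl2. Embryonic stem cells are known for high LIN28A and little mature let-7, and their main microRNAs are the miR-290 and miR-302 clusters, which share a seed.

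The mature microRNAs are shown because their seeds (bases 2 to 8, in capitals) define the sites searched in the 10 genes. The sequences are from RefSeq, GRCm38.p6, and 9 mature let-7 and miR-98 forms in it share the first seed printed.
mmu-let-7a-5p: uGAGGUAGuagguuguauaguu
mmu-let-7g-5p: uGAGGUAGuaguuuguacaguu
mmu-miR-98-5p: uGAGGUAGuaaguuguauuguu
mmu-miR-125a-5p: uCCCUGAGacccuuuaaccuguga
mmu-miR-291a-3p: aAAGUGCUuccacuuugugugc
mmu-miR-294-3p: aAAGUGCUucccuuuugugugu
mmu-miR-17-5p: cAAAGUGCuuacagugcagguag
The seed of miR-17-5p is that of miR-291a-3p moved by 1 base, so sites of these families can overlap.

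Sites were searched on the transcript strand of each gene's longest 3′ untranslated region in GENCODE mouse release 21. For let-7 the letters were CTACCTCA (8mer), CTACCTC (7mer-m8) and TACCTCA (7mer-A1), and a site was counted once, as its longest form. In these longest regions all 10 genes held at least 1 let-7 site and 7 of them held an 8mer. Arid3b was not among the 7, but a shorter annotated region of it, of 1231 nt, held 1 let-7 8mer. The sites below are shown for the genes on which the results turn, on GRCm38, with the site in capitals.
Lin28a, chr4:134005189-134005218, minus strand, let-7 8mer: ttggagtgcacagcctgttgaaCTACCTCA
Lin28a, chr4:134004551-134004580, minus strand, let-7 8mer: atgctttgagatcgccacaaacCTACCTCA
Trim71, chr9:114512472-114512501, minus strand, let-7 8mer: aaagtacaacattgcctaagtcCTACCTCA
Trim71, chr9:114512376-114512405, minus strand, let-7 8mer: cctgtgaagtgataatttctatCTACCTCA
Hmga2, chr10:120364224-120364253, minus strand, let-7 8mer: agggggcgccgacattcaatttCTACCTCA
Hmga1, chr17:27563269-27563298, plus strand, let-7 7mer-m8: ccatcttctcctctgttcacaaaCTACCTC
Plagl2, chr2:153229899-153229928, minus strand, let-7 7mer-m8: ctctctgattcagaaacacacttCTACCTC
Plagl2, chr2:153231348-153231377, minus strand, miR-291a-3p family 7mer-m8: agaaaattctagtgtctatatggAGCACTT
Plagl2, chr2:153227964-153227993, minus strand, miR-291a-3p family 7mer-m8: aaaatacaagacaaaaaccttctAGCACTT

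Hmga2 held the most let-7 sites, 7 in 3014 nt, followed by Trim71 with 6 in 5512 nt, of which 4 were 8mers. Lin28a held 2 let-7 8mers in 2775 nt, and 6.14% of the tested genes with a region within 25% of that length held any let-7 8mer. The same share was 13.8% at the length of Trim71 and 6.5% at that of Hmga2. Lin28b, Igf2bp1 and Arid3b held 5 let-7 sites each, Igf2bp2 held 2, and Igf2bp3, Hmga1 and Plagl2 held 1 each. A let-7 site of any form was found in 24.8% of tested regions near the length of Igf2bp3, in 14.2% near that of Hmga1 and in 34.1% near that of Plagl2, so a single site is common at these lengths. None of the 10 genes held a miR-291a-3p family 8mer. Plagl2 and Lin28b held 2 shorter sites of that family and Trim71 and Igf2bp1 held 1. The other 6 genes, Lin28a, Hmga1 and Hmga2 among them, held none. An 8mer of miR-125-5p (CTCAGGGA), a second microRNA of this axis, was found once each in Lin28a, Lin28b, Trim71, Arid3b and Plagl2. Igf2bp1 held 1 8mer of the miR-17-5p family (GCACTTTA), and the other genes held none. A match is a description of the letters and not a measured site.

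**Figure D1:**
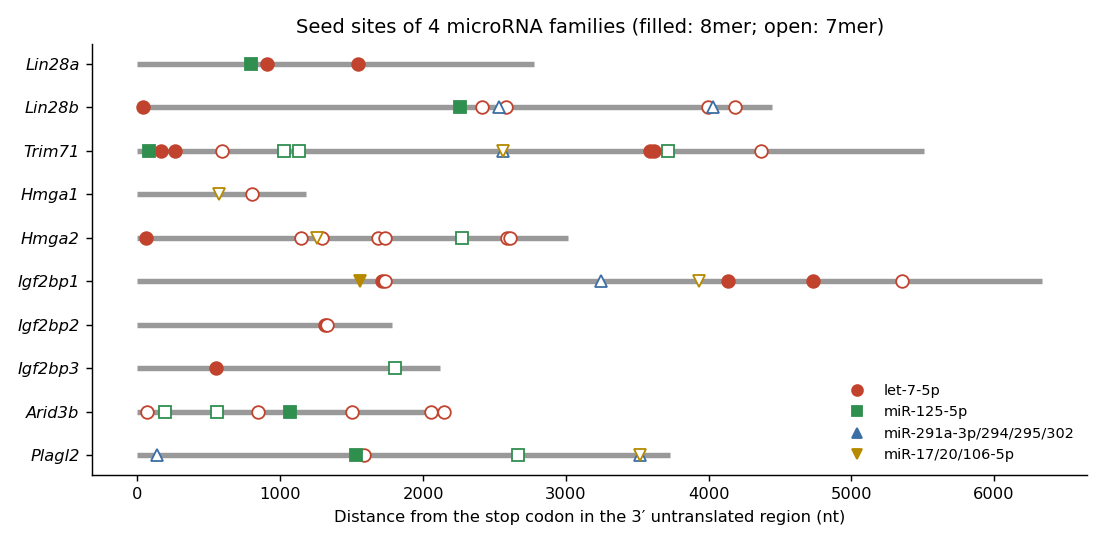
Seed sites along the 3′ untranslated region of each of the 10 genes, as distance from the stop codon in nt, for 4 microRNA families. Filled symbols are 8mers and open symbols are 7mers. Trim71 carries 4 let-7 8mers, Igf2bp1 carries 3 and Lin28a carries 2.

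Of the 10 genes, Plagl2 and Hmga2 were higher off doxycycline, Lin28a and Hmga1 were lower, and 6 did not pass limma's test at an adjusted p of 0.05. Over all tested genes 40.6% passed, 19.5% higher and 21.0% lower, so a count of 4 of 10 is near the background. Of all calls 48.2% were higher, but 67.7% were with values rescaled to TPM, which moved the median log2 change of all genes to 0.10. The values of the off and on libraries did not overlap for 7 of the 10 genes, and for 73.2% of all tested genes. An unadjusted limma p under 0.05 held for 5 of the 10 and for 51.3% of all tested genes. The median log2 change was -0.04 over the 10 genes and -0.05 over all tested genes. Each log2 change here is the off mean minus the on mean of log2(FPKM + 0.5), and the added 0.5 shrinks changes of low genes. FPKM counts fragments scaled by transcript length and library total, so levels are per length. Set side by side between genes they are approximate. Short forms can hold much of a gene's value, as the 487-nt form of Igf2bp2 did with 27.4% in off-doxycycline library 1. How reads that match more than 1 place were counted is also not known.

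**Figure D2:**
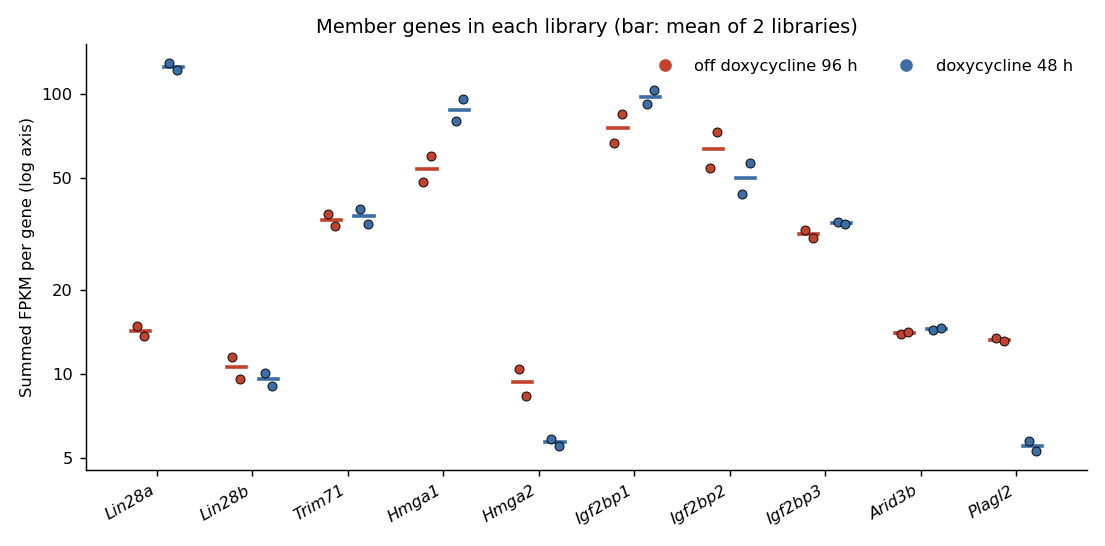
Summed FPKM of each of the 10 genes in every library, on a log axis, with off doxycycline (red) left of on doxycycline (blue) and a bar at the mean of 2 libraries. Lin28a stands near 14 FPKM off doxycycline and above 121 FPKM on it, while Plagl2 and Hmga2 stand higher off doxycycline.

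Lin28a, which encodes the mainly cytoplasmic inhibitor of let-7 maturation, had 14.8 and 13.7 FPKM off doxycycline, against 129 and 122 FPKM on it (NCBIM37 chr4:133559047-133574756, minus strand). Both off libraries were far below both on libraries, and the values within a condition were close. The mean was 14.2 ± 0.771 FPKM off doxycycline and 125 ± 4.85 FPKM on it (SD, n = 2 each), a level 8.79 times as high on doxycycline. The log2 change was -3.09 (SE 0.09, 95% interval -3.31 to -2.87, limma adjusted p = 0.00135). This was the second-largest fall among all tested genes. The level of Lin28a off doxycycline was above that of 55.6% of tested genes, and on doxycycline it was above that of 94.8%. In these bulk libraries fewer cells with the transcript and less transcript per cell cannot be told apart.

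Lin28b, the paralog that is known to act on let-7 in the nucleus as well, had 11.5 and 9.61 FPKM off doxycycline, against 10.1 and 9.05 FPKM on it (NCBIM37 chr10:45095668-45206440, minus strand). The libraries of the 2 conditions overlapped. Its log2 change of 0.13 had a 95% interval of -0.18 to 0.44 (limma adjusted p = 0.422), and a change as large as that of Lin28a lies outside the interval. Off doxycycline Lin28a stood a little above Lin28b in both libraries, and on doxycycline it stood far above it.

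Trim71, a let-7 target that encodes an RNA-binding ubiquitin ligase of stem cells, had 37.3 and 33.9 FPKM off doxycycline, against 38.7 and 34.3 FPKM on it (NCBIM37 chr9:114416160-114474005, minus strand). The conditions overlapped, and the 2 libraries numbered 0 were the higher of each pair. Its log2 change was -0.04 (95% interval -0.30 to 0.23, limma adjusted p = 0.796). Its sign turned with the scaling: it was 0.12 after rescaling to TPM and 0.02 with the condition medians set equal. With isoforms of matching class only it was -0.49 (limma adjusted p = 0.452). That setting keeps the 9820- and 5190-nt forms and leaves out the main forms of the gene, given below. Trim71 held the most let-7 8mers of the 10 genes, of which the first 2 are printed above.

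Hmga1, an architectural chromatin protein that binds AT-rich DNA, had 48.5 and 59.8 FPKM off doxycycline, against 79.8 and 96.1 FPKM on it (NCBIM37 chr17:27693565-27700619, plus strand). Both off libraries were below both on libraries, and the libraries numbered 1 were the higher in each condition. The mean was 54.1 ± 7.95 FPKM off doxycycline and 87.9 ± 11.5 FPKM on it (SD, n = 2 each). The log2 change was -0.70 (SE 0.15, 95% interval -1.07 to -0.32, limma adjusted p = 0.0192). The call was lost without on-doxycycline library 1, where the log2 change was -0.56 (limma adjusted p = 0.0664), and when genes of low level were kept in the test (limma adjusted p = 0.0562).

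Hmga2, the relative of Hmga1 with the best-known let-7 sites, had 10.4 and 8.37 FPKM off doxycycline, against 5.85 and 5.55 FPKM on it (NCBIM37 chr10:119798331-119913525, minus strand). Both off libraries were above both on libraries. The mean was 9.38 ± 1.43 FPKM off doxycycline and 5.70 ± 0.213 FPKM on it (SD, n = 2 each). The log2 change was 0.67 (SE 0.13, 95% interval 0.35 to 0.99, limma adjusted p = 0.0142), opposite in sign to that of Hmga1.

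The 3 Igf2bp genes encode proteins that bind and stabilise mRNAs, among them Igf2 and Myc, and none passed the test. Igf2bp1 had 66.7 and 84.99 FPKM off doxycycline, against 91.8 and 103 FPKM on it (NCBIM37 chr11:95818477-95867462, minus strand). The conditions did not overlap, but the libraries numbered 1 were higher in both. By isoform this held for the 576-, 599-, 690- and 8378-nt forms. The 8436- and 8583-nt forms were lower in the libraries numbered 1. The gene sum without the short forms was not tested. Its log2 change was -0.37 (95% interval -0.74 to -0.0033, limma adjusted p = 0.0954), and without off-doxycycline library 1 it was -0.54 and passed (limma adjusted p = 0.0312).

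Igf2bp2 had 54.4 and 73.1 FPKM off doxycycline, against 43.8 and 56.4 FPKM on it (NCBIM37 chr16:22059082-22163824, minus strand). The conditions overlapped, because the off library numbered 0 was below the on library numbered 1. Much of the difference by library number lay in a 487-nt form. That form held 2.43% and 27.4% of the gene's FPKM off doxycycline, against 16.4% and 26.5% on it. The gene sum without this form was not tested. The change was 0.34 on the log2 scale (95% interval -0.14 to 0.82, limma adjusted p = 0.205). It passed with TPM, at 0.50 (limma adjusted p = 0.0453). Within the libraries numbered 0 the log2 ratio was 0.31 and within those numbered 1 it was 0.37, but the labels do not say that a number pairs libraries.

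Igf2bp3 had 32.7 and 30.7 FPKM off doxycycline, against 35.0 and 34.2 FPKM on it (NCBIM37 chr6:49035220-49165521, minus strand). Both off libraries were slightly below both on libraries. The change was -0.13 on the log2 scale (95% interval -0.33 to 0.08, limma adjusted p = 0.265), and with TPM it was 0.03. A change of 1 on the log2 scale, in either direction, lay outside the interval of each of the 3 Igf2bp genes.

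Plagl2, a zinc finger transcription factor and proto-oncogene, had 13.4 and 13.1 FPKM off doxycycline, against 5.74 and 5.31 FPKM on it (NCBIM37 chr2:153053495-153067162, minus strand). Both off libraries were more than 2 times as high as both on libraries. The mean was 13.3 ± 0.198 FPKM off doxycycline and 5.53 ± 0.305 FPKM on it (SD, n = 2 each), and the log2 change was 1.19 (SE 0.09, 95% interval 0.97 to 1.41, limma adjusted p = 0.00207). It was the largest rise among the 10 genes and ranked 373 among all tested genes. Its region held 1 let-7 site and the 2 sites of the miR-291a-3p family printed above. One of those overlaps a site of miR-17-5p (GCACTTT). A site of the miR-291a-3p family, of any form, was found in 43.8% of tested regions near the length of Plagl2. Lin28b also held 2 such sites and Trim71 and Igf2bp1 held 1 each, and these genes did not pass the test.

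Arid3b, a transcription factor with an AT-rich interaction domain, had 13.9 and 14.1 FPKM off doxycycline, against 14.3 and 14.6 FPKM on it (NCBIM37 chr9:57638160-57684600, minus strand). The values lay close together in all 4 libraries, with both off libraries just below both on libraries. The change was -0.05 on the log2 scale (95% interval -0.25 to 0.15, limma adjusted p = 0.641), and it was 0.11 with TPM.

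**Figure D3:**
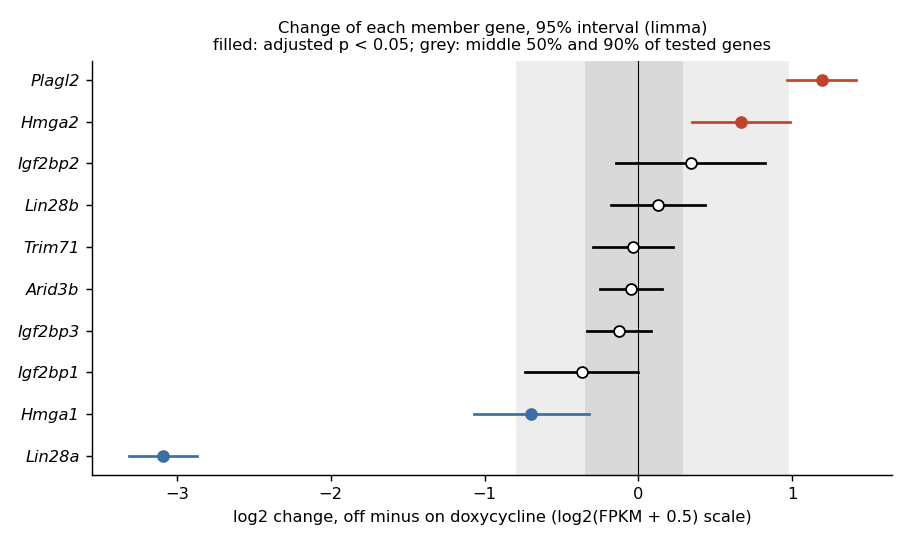
Log2 change (off minus on doxycycline, on the log2(FPKM + 0.5) scale) of each gene with limma's 95% interval, filled where the adjusted p is under 0.05. The grey bands hold the middle 50% and 90% of all tested genes. Lin28a at -3.09 and Plagl2 at 1.19 lie outside the wider band, which runs from -0.79 to 0.97.

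Ordered by level, the genes off doxycycline were Igf2bp1 (75.9 FPKM), Igf2bp2 (63.7), Hmga1, Trim71 (35.6), Igf2bp3 (31.7), Lin28a, Arid3b (14.0), Plagl2, Lin28b (10.5) and Hmga2. In that order Igf2bp2 overlapped with both of its neighbours, Lin28a with Arid3b, and Lin28b with Hmga2. On doxycycline the order was Lin28a, Igf2bp1 (97.6 FPKM), Hmga1, Igf2bp2 (50.1), Trim71 (36.5), Igf2bp3 (34.6), Arid3b (14.5), Lin28b (9.58), Hmga2 and Plagl2. There the libraries of 3 neighbouring pairs overlapped, those of Igf2bp1 with Hmga1, Trim71 with Igf2bp3, and Hmga2 with Plagl2. Lin28a thus stood in the middle of the order off doxycycline and at its top on it. The order is approximate, because levels of different genes are only roughly comparable, as stated above.

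Of the 89 isoforms, 37 averaged 1 FPKM or more in one condition or both and were tested, and 14 were listed at 0 in every library. None passed limma at an adjusted p of 0.05, where the lowest was 0.138. None of all 32943 tested isoforms passed either (0.0%), and their lowest adjusted p was 0.0542. An unadjusted limma p under 0.05 was found for 6 of the 37, and for 18.4% of all tested isoforms. The conditions did not overlap for 19 of the 37, and for 51.0% of all tested isoforms. Isoform values are therefore given as descriptions.

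The 3505-nt isoform of Lin28a, with 4 exons, had 11.9 and 13.0 FPKM off doxycycline, against 113 and 121 FPKM on it. It held 80.7% and 95.01% of the gene's FPKM off doxycycline and 87.8% and 99.6% on it, so most of the gene's level lay in this form in every library. The remainder differed by library number. A 3400-nt form with 3 exons had 1.22 and 0.206 FPKM off doxycycline, against 15.3 and 0.069 FPKM on it.

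Plagl2 and Hmga2 were each carried by 1 isoform. The 5485-nt isoform of Plagl2 had 12.8 and 12.5 FPKM off doxycycline, against 5.00 and 4.98 FPKM on it. The 3710-nt isoform of Hmga2 had 8.17 and 8.15 FPKM off doxycycline, against 5.64 and 5.24 FPKM on it. The difference between the 2 off libraries in the gene sum of Hmga2 came from minor isoforms, since this one was nearly the same in both.

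Hmga1 was spread over several forms. The 1635-nt isoform had 18.2 and 20.5 FPKM off doxycycline, against 30.6 and 29.9 FPKM on it. The 1593-nt isoform had 15.3 and 14.1 FPKM off doxycycline, against 25.7 and 28.6 FPKM on it. The annotated transcripts of these 2 forms hold the let-7 site printed above, while those matched to the 1003-, 1328- and 529-nt forms hold none. The 1003-nt form had 7.14 and 10.0 FPKM off doxycycline, against 12.3 and 17.4 FPKM on it, again lower off doxycycline in both libraries. The 1328-nt form had 1.18 and 2.1 FPKM off doxycycline, against 3.05 and 2.17 FPKM on it. The 529-nt form followed the library number, with 5.33 and 11.9 FPKM off doxycycline, against 6.56 and 16.1 FPKM on it.

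Trim71 had nearly equal values in its main forms. The 7460-nt isoform had 16.9 and 17.1 FPKM off doxycycline, against 17.3 and 16.9 FPKM on it, and the 9146-nt isoform had 14.3 and 14.6 FPKM off doxycycline, against 15.9 and 12.1 FPKM on it. A 9820-nt form had 5.62 and 0.798 FPKM off doxycycline, against 2.09 and 2.05 FPKM on it. A minor 5190-nt isoform, which ends 4233 nt upstream of the others, had 0.448 and 1.41 FPKM off doxycycline, against 3.45 and 3.24 FPKM on it. It was the one Trim71 form whose conditions did not overlap, with a log2 change of -1.51 (95% interval -2.72 to -0.30, limma adjusted p = 0.219).

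The main isoform of Igf2bp1 (8378 nt) had 32.1 and 40.8 FPKM off doxycycline, against 34.3 and 42.6 FPKM on it, and the conditions overlapped. They did not overlap in the 8436-nt isoform, with 14.6 and 9.61 FPKM off doxycycline, against 25.05 and 14.96 FPKM on it, in the 8583-nt isoform (4.21 and 3.06, against 6.35 and 5.30 FPKM) and in a 599-nt isoform (0.114 and 4.05, against 5.93 and 10.1 FPKM). The short forms of 576 nt (8.63 and 18.9 FPKM off doxycycline, against 12.3 and 19.9 FPKM on it) and 690 nt (2.50 and 7.08, against 4.15 and 8.14 FPKM) followed the library number. Forms of 7960, 7961 and 8027 nt stayed at or below 2.73 FPKM and differed more between libraries of a condition than between conditions.

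Several forms of Igf2bp2 varied widely between libraries of 1 condition. The 3899-nt isoform had 30.6 and 17.1 FPKM off doxycycline, against 16.4 and 13.3 FPKM on it. The 487-nt form had 1.32 and 19.997 FPKM off doxycycline, against 7.18 and 14.9 FPKM on it. Values of one form changed places with those of another, as in the 3310-nt isoform (15.9 and 8.09 FPKM off doxycycline, against 2.52 and 14.4 FPKM on it), the 3078-nt isoform (1.52 and 17.5, against 2.16 and 8.94 FPKM) and the 3267-nt isoform (0.292 and 6.48, against 6.55 and 1.20 FPKM). The 3479-nt form (2.11 and 1.69 FPKM off doxycycline, against 8.35 and 2.53 FPKM on it) and the 631-nt form (1.14 and 1.55, against 0.251 and 0.504 FPKM) did not overlap between conditions, in opposite directions.

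The 4340-nt isoform of Igf2bp3 had 19.8 and 21.2 FPKM off doxycycline, against 22.2 and 24.0 FPKM on it, and a 3647-nt isoform had 7.92 and 5.63 FPKM off doxycycline, against 5.44 and 4.50 FPKM on it. These forms stood apart in opposite directions. Forms of 4856 nt (3.50 and 3.87 FPKM off doxycycline, against 4.39 and 4.27 FPKM on it) and 4777 nt (0.704 and 0, against 1.60 and 0.969 FPKM) were lower off doxycycline. The 5389-nt isoform of Lin28b had 8.27 and 7.46 FPKM off doxycycline, against 7.12 and 7.08 FPKM on it, and its 6466-nt isoform had 1.50 and 1.02 FPKM off doxycycline, against 1.88 and 0.253 FPKM on it. The 2 tested isoforms of Arid3b overlapped between conditions. The 3325-nt form had 7.88 and 7.16 FPKM off doxycycline, against 8.68 and 7.54 FPKM on it, and the 3785-nt form had 3.59 and 4.87 FPKM off doxycycline, against 3.09 and 4.75 FPKM on it.

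**Figure D4:**
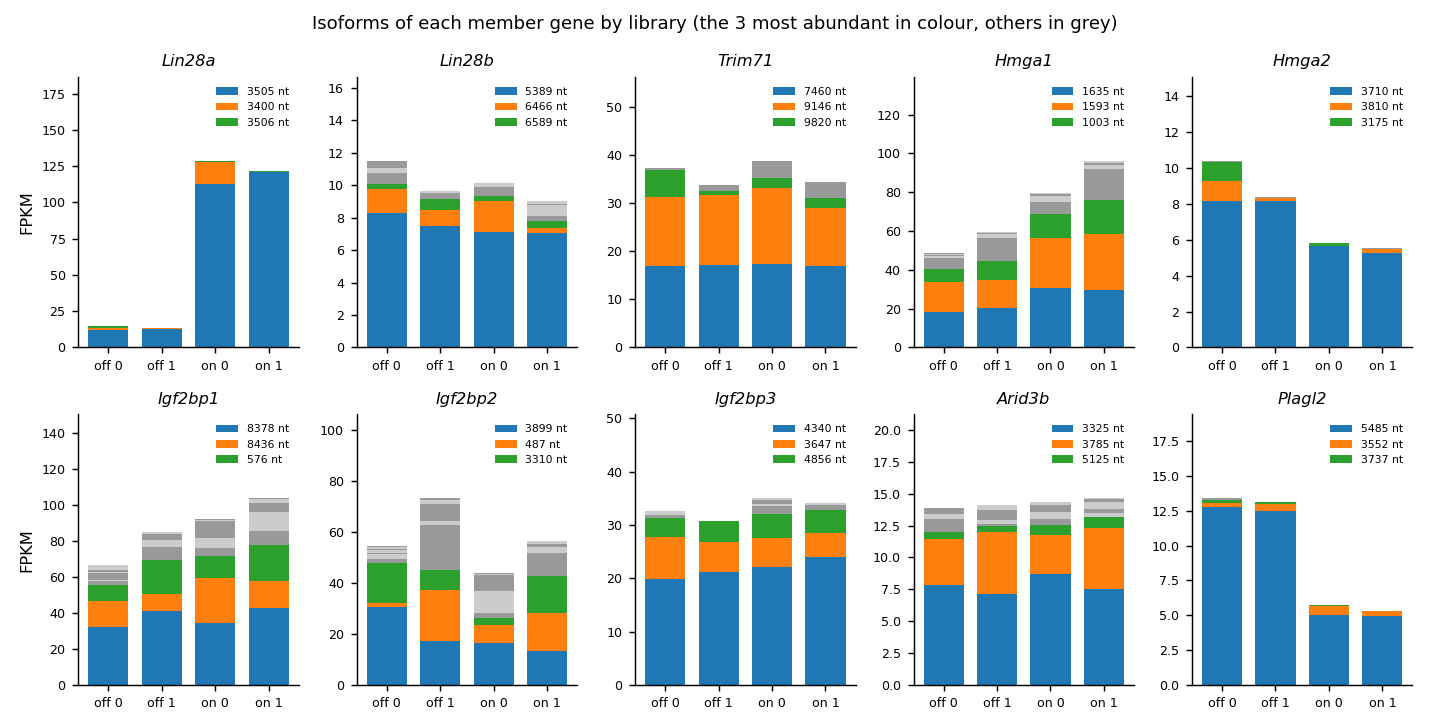
Stacked FPKM of the isoforms of each gene in the off libraries (off 0, off 1) and the on libraries (on 0, on 1), with the 3 most abundant isoforms in colour by length in nt and the others in grey. Lin28a, Plagl2 and Hmga2 are carried mainly by 1 isoform, and the isoforms of Igf2bp2 change places between libraries of 1 condition.

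Among other reported let-7 targets, 25 of 30 listed genes were tested, of which 4 were higher off doxycycline, 4 were lower and 17 did not pass limma's test. Their median log2 change was 0.09, beside -0.05 over all tested genes, of which 19.5% were higher and 21.0% lower. Myc, the growth transcription factor, had 5.47 and 7.57 FPKM off doxycycline, against 17.01 and 18.4 FPKM on it, a log2 change of -1.39 (SE 0.16, limma adjusted p = 0.00432). The matrix glycoprotein gene Thbs1 had 1.16 and 1.59 FPKM off doxycycline, against 0.387 and 0.401 FPKM on it, a log2 change of 1.06 (SE 0.17, limma adjusted p = 0.00929). The cell cycle factor E2f2 had 5.01 and 5.68 FPKM off doxycycline, against 2.91 and 2.78 FPKM on it, a log2 change of 0.80 (SE 0.11, limma adjusted p = 0.00567). The other calls were Nras (-0.66 on the log2 scale), Hras (-0.60) and the phosphatase gene Cdc25a (-0.47), which were lower, and Arid3a (0.42) and Lrig2 (0.36), which were higher. Listed genes with a let-7 site of 7 or 8 bases were higher in 4, lower in 2 and not past the test in 15 of 21 cases, and those without one in 0, 2 and 2 of 4. Myc and Hras were the 2 lower genes with no such site in the searched region.

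Read over all 11497 tested genes with an annotated region, the calls of genes with and without let-7 sites were counted. Of the 499 with an 8mer, 21.8% were higher and 16.8% lower off doxycycline, with a median log2 change of -0.01. Of the 9366 with no let-7 site of 7 or 8 bases, 20.6% were higher and 20.7% lower, with a median of -0.03. In the same comparison, 37.3% of the 424 genes holding a miR-291a-3p family 8mer were higher and 11.1% lower, with a median of 0.21. Nearly the same shares were found for the 512 genes with a miR-17-5p family 8mer, 37.1% and 8.79%, with a median of 0.21. For the 694 genes with a miR-125-5p 8mer the shares were 25.9% and 17.6% and the median 0.05. No test was made on these shares.

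Of 13 genes listed for let-7 precursor processing and decay, 2 were higher, 1 was lower and 10 did not pass, with a median log2 change of -0.01. The list includes Trim32, which is reported to act on let-7 activity and was 1 of the 2 higher genes. The shares over all tested genes were 19.5% higher and 21.0% lower. Tut4 and Tut7, the terminal uridylyl transferases that LIN28A recruits, had 18.2 and 20.5 FPKM (Tut4) and 9.80 and 10.6 FPKM (Tut7) off doxycycline, against 14.4 and 20.9 FPKM (Tut4) and 8.46 and 9.16 FPKM (Tut7) on it, and neither passed. The nuclease gene Dis3l2, whose product degrades uridylated precursors, had 6.99 and 8.04 FPKM off doxycycline, against 7.53 and 8.18 FPKM on it. Trim32, a relative of Trim71 that is reported to raise let-7 activity, had 9.86 and 10.3 FPKM off doxycycline, against 5.77 and 5.995 FPKM on it, a log2 change of 0.73 (SE 0.09, limma adjusted p = 0.00444). Trim25, a cofactor of LIN28A-dependent uridylation, was higher by 0.34 on the log2 scale (limma adjusted p = 0.0307). Tarbp2, a Dicer partner, fell by 0.33 on the log2 scale (limma adjusted p = 0.036), and no listed processing gene was called lower with no filter, with TPM, with equal medians, with matching isoforms only, with the most abundant isoform alone, or without off-doxycycline library 0 or either on-doxycycline library.

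Transcripts reported as targets of TRIM71 were higher off doxycycline in 4 of 4 cases, with a median log2 change of 1.18, beside 19.5% of all tested genes called higher. Cdkn1a, an inhibitor of cyclin-dependent kinases, had 78.1 and 80.8 FPKM off doxycycline, against 15.0 and 15.6 FPKM on it, a log2 change of 2.34 (SE 0.08, limma adjusted p = 0.00135). Rbl2, a retinoblastoma relative, had 18.98 and 18.7 FPKM off doxycycline, against 6.40 and 6.38 FPKM on it, a log2 change of 1.49 (SE 0.08, limma adjusted p = 0.00164). Egr1 had 42.8 and 39.8 FPKM off doxycycline, against 21.7 and 23.2 FPKM on it, a log2 change of 0.87 (SE 0.09, limma adjusted p = 0.00328), and Rbl1 changed by 0.52. Cdkn1a and Rbl2 are also known as targets of the miR-290 cluster in mouse embryonic stem cells. The Trim71 transcript did not pass the test, as given above, and its protein was not measured here. The cause of the changes in these 4 genes was not tested.

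Of 8 genes listed with the ligands, receptors and adaptors of insulin-like growth factors, 4 were tested, of which 1 was lower and 3 did not pass. The lower one was H19, which is no ligand, receptor or adaptor, and the 3 others are receptor genes. The imprinted noncoding RNA H19 had 15.5 and 18.6 FPKM off doxycycline, against 51.4 and 52.9 FPKM on it, a log2 change of -1.59 (SE 0.11, limma adjusted p = 0.0020). The receptor genes Igf1r (0.15) and Insr (0.09 on the log2 scale) did not pass. Igf2, the growth factor whose mRNA gives the Igf2bp genes their name, was below 1 FPKM in every library, at 0.489 and 0.533 FPKM off doxycycline, against 0.604 and 0.731 FPKM on it. Of the family relatives of the 10 genes, 4 of 6 tested were higher, none was lower and 2 did not pass, with a median log2 change of 0.46. Among all tested genes 19.5% were higher and 21.0% lower. The count of higher relatives was 2 with isoforms of matching class only or with the most abundant isoform alone. Plagl1, the imprinted relative of Plagl2, had 46.5 and 54.4 FPKM off doxycycline, against 11.6 and 12.9 FPKM on it, a log2 change of 2.0 (SE 0.11, limma adjusted p = 0.00167). Plag1, the third gene of that family, had 4.70 and 3.40 FPKM off doxycycline, against 3.26 and 2.63 FPKM on it, and did not pass. Trim2 (0.49, limma adjusted p = 0.0144) and Arid3a were also higher. Trim32, Arid3a, Dicer1, Igf1r, Insr and Irs2 stand on more than 1 list.

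**Figure D5:**
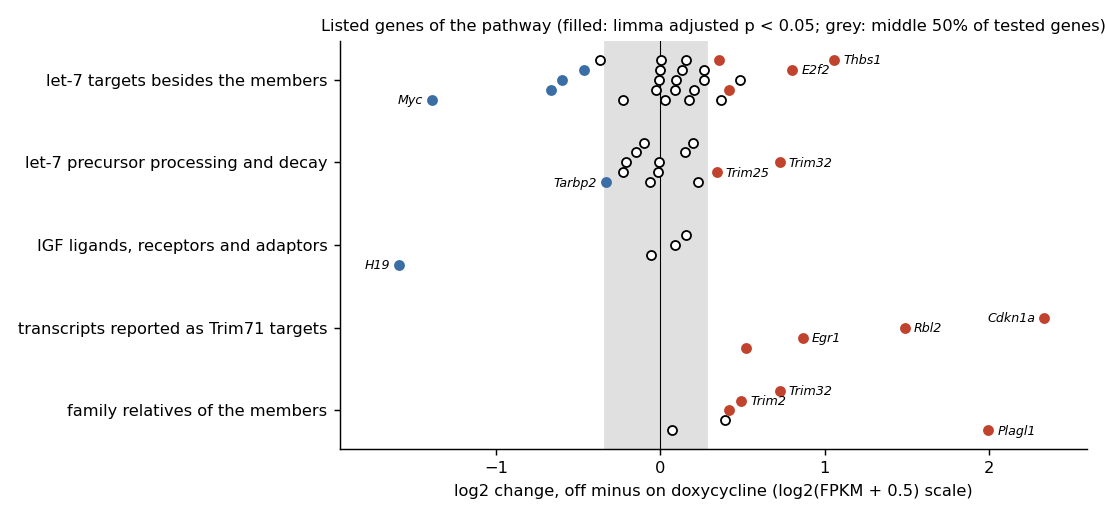
Log2 change (off minus on doxycycline, on the log2(FPKM + 0.5) scale) of each tested gene on 5 lists, filled red (higher) or blue (lower) where limma's adjusted p is under 0.05. The grey band holds the middle 50% of all tested genes. The 4 reported Trim71 targets all lie to the right, with Cdkn1a at 2.34, and the let-7 targets lie on both sides.

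The genes whose pattern over the 4 libraries was most like that of Lin28a were found among 11222 candidates by the Euclidean distance of log2(FPKM + 0.5), centred on each gene's mean. They were Gap43 (distance 0.29), Spink1 (0.53), Steap1 (0.53), Tmem150a (0.65) and B3gnt5 (0.75). Gap43, known as a growth cone protein of neurons, had 1.03 and 1.03 FPKM off doxycycline, against 10.1 and 10.97 FPKM on it. Spink1, a secreted trypsin inhibitor, had 5.21 and 6.81 FPKM off doxycycline, against 75.7 and 70.9 FPKM on it. All 5 were chosen for being low off doxycycline, so their values are a description.

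Ago2, the controlled gene, had 28.7 and 28.8 FPKM off doxycycline, against 35.2 and 36.7 FPKM on it (log2 change -0.32, limma adjusted p = 0.0291), and the files do not separate a transgene from the endogenous gene. The embryonic stem cell label fitted its markers, with 12 of 12 tested, 2 higher and 4 lower off doxycycline, and summed levels of 4487 and 5068 FPKM off doxycycline, against 4328 and 4819 FPKM on it. Primed epiblast markers summed to 39.95 and 43.3 FPKM off doxycycline, against 58.6 and 65.0 FPKM on it, and of the 3 tested of 6, Otx2 was higher off doxycycline and Dnmt3b and Pou3f1 were lower, while Fgf5, T and Foxa2 were below 1 FPKM. Neural markers (2 of 4 tested) summed to 8.30 and 10.8 FPKM off doxycycline, against 6.37 and 7.67 FPKM on it. The sums of 5 primitive endoderm (1 tested), 5 trophoblast (0 tested) and 7 fibroblast markers (1 tested) stayed between 1.69 and 3.34 FPKM off doxycycline, against 1.39 and 2.42 FPKM on it. Nes of the neural list and Gata4 of the primitive endoderm list were higher off doxycycline, Thy1 of the fibroblast list did not pass, and Col3a1 and Postn of that list were at 0 in every library. Their part in the results above was not tested. Low values stepped in whole reads, within 0.1 read, in 100% of cases in the libraries numbered 1, at 46.6 M fragments (M, mega) off doxycycline and 46.5 M on it, where 3 reads on a 2000-nt transcript are worth 0.0353 FPKM off doxycycline and 0.0354 FPKM on it. The depth of the libraries numbered 0 is unknown, since 40.8% of their low values off doxycycline and 41.8% on it were whole within 0.1 read, with chance giving 20%.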

How the data were processed

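PolyA RNA was measured in 4 libraries. The authors deposited FPKM values per isoform, made with TopHat2 2.0.9 and Cufflinks 2.1.1 on NCBIM37, per the submitters' processing notes. Exon coordinates were deposited in a merged assembly, and isoform lengths and classes were taken from it. The library total behind FPKM and the treatment of reads that match more than 1 place are not given in the sources used here, so values of genes that share sequence with others, such as the Hmga and Igf2bp families, are uncertain. One further result is not reported here. A total of 25 symbols (236 isoforms) that a spreadsheet had turned into dates were restored from the second deposited table, whose shared values differed in 5447 of 362054 cases, by at most 0.482%.

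FPKM was summed per gene over isoforms of at least 200 nt, because shorter ones held 98.9% to 99.6% of a library's summed FPKM. The isoforms used summed to 449360 and 485192 FPKM off doxycycline, against 508954 and 535107 FPKM on it. Genes averaging 1 FPKM or more in one condition or both were tested on log2(FPKM + 0.5) with limma 3.58.1 in R 4.3.3 (trend, 2 residual and 3.15 prior degrees of freedom, two-sided) and Benjamini-Hochberg adjustment over all tested genes. Isoforms were tested in the same way, with 1.77 prior degrees of freedom. No permutation test of 2 libraries against 2 can give a p below 0.333.

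The library numbers could not be matched to the labels' replicate numbers, so libraries were treated as unpaired. The members and lists were chosen with earlier results of these data known. All 10 members and their isoforms of at least 1 FPKM are named. Of each list the 3 genes with the largest change are named, and the 5 genes nearest to Lin28a. Other genes of the lists that are named were chosen after their values were seen. Of the sequences, microRNAs are from RefSeq and sites from GENCODE mouse release 21, both GRCm38, so no coordinate was moved between builds. The procedure was tested on simulated data. The 13 alternatives were another pseudocount, filter, scaling, isoform class or isoform choice, a term for library number, and each library left out. Tables, site searches and figures used Python 3.11.15, pandas 2.3.3, numpy 2.4.6 and matplotlib 3.10.9.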

Additional observations from a re-analysis of the deposited data

How the results depend on the processing

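Lin28a (log2 change -3.18 to -2.96, limma adjusted p 0.000269 to 0.0152), Hmga2 (0.52 to 0.84, 0.0037 to 0.0492) and Plagl2 (1.13 to 1.38, 0.0009 to 0.0174) kept their calls under all 13 alternatives. Between 3 and 6 of the 10 genes were called. The lower ones were 1 in place of 2 with no filter on low values, and 1 to 3 with a library left out. Signs turned for values near 0. Trim71 was 0.12 with TPM, 0.019 with equal medians, -0.12 to 0.051 with a library left out, and -0.49 with matching isoforms only. The last of these leaves out the main forms of Trim71. Igf2bp3 was 0.032 with TPM. Arid3b was 0.11 with TPM, 0.0058 with equal medians and 0.052 with matching isoforms only. The cause was not tested.

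With library number as a block, a replicate pairing that the labels do not give, 8143 genes were called in place of 5370, 4521 of them lower in place of 2783, and Igf2bp1 (limma adjusted p = 0.00745) and Igf2bp2 (limma adjusted p = 0.00468) passed. The deviations of libraries with the same number had a correlation of 0.46. Under the block 8 listed let-7 targets were higher and 6 lower, and 4 processing genes were higher and 3 lower. With isoforms of matching class only 2571 genes were called, 1267 higher and 1304 lower, with the most abundant isoform alone 2030, 1049 higher and 981 lower, and with a library left out 3098 to 4365, 1718 to 2033 higher and 1337 to 2463 lower. With TPM 3964 genes were higher, the share of higher calls was 67.7% (56.1% with equal medians, 48.2% as reported) and the median of all genes was 0.10.

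Listed let-7 targets called higher were 10 with TPM, 2 with matching isoforms only or the most abundant isoform, and 2 to 3 with a library left out, while those lower were 2 with matching isoforms and 2 to 4 with a library left out. Processing genes called higher were 4 with TPM, 1 with matching isoforms, 0 with the most abundant isoform and 1 to 2 with a library left out. Those called lower were 0 with no filter, TPM, equal medians, matching isoforms or the most abundant isoform, and 0 to 1 with a library left out. Family relatives called higher were 2 with matching isoforms or the most abundant isoform and 2 to 4 with a library left out. Where a condition was left with 1 library, that library was assumed to vary like the others. No isoform of the 10 genes was called under any alternative run. The most abundant isoform alone was not planned for isoforms.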

Other observations

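An antisense model of 663 nt with 4 exons lies within Arid3b on the opposite strand (NCBIM37 chr9:57673752-57682102, plus strand) and was left out of the sum of that gene. It had 4.26 and 4.36 FPKM off doxycycline, against 5.32 and 5.61 FPKM on it. Both off libraries were below both on libraries, and the conditions did not overlap for 51.0% of all tested isoforms. The difference in this antisense model was not tested.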
